A study of Mus musculus with 6 samples.

Results

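Tmem176b and Tmem176a are a pair of neighbouring mouse genes, described here in macrophages sorted from heart allografts of mice. All probe sets whose annotation carries either symbol were taken. There were 2 of them, 1 for each gene and each with that symbol alone, among 41345 probe sets and 22180 named genes. Both genes were chosen with the difference between treated and untreated arrays already known, so their levels are given as a description, with no test. The 3 mTORi-HDL samples came from C57BL/6 recipients of a BALB/c heart that had been given mTORi-HDL, a high-density lipoprotein nanoparticle loaded with an inhibitor of the kinase mTOR, at 5 mg/kg on days 0, 2 and 5. The 3 untreated samples came from recipients of the same strain with the same kind of graft, which received nothing and rejected it. Grafts were taken on day 6 in both groups. There was no group given the particle without its drug, and whether a sample was 1 recipient or several is not stated, so the spread between samples may be partly technical.

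Tmem176a and Tmem176b encode membrane proteins related to the MS4A family, whose best-known member is the B cell protein CD20. The proteins sit on membranes inside the cell, and TMEM176B conducts cations there. Tmem176b was first described in the rat, under the name TORID, as a transcript raised in tolerated heart allografts. In dendritic cells both genes mark the immature state, both have been linked to antigen presentation on MHC class II, and TMEM176B has been linked to cross-presentation and to restraint of the NLRP3 inflammasome.

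Both genes lie on mouse chromosome 6, on opposite strands, and from the starts shown here they are transcribed away from each other. The promoter windows of 1 annotated start of each are printed because these windows share most of their DNA. They are from RefSeq, build GRCm38.p6, at chr6:48841325-48841624 on the minus strand for Tmem176b and chr6:48841233-48841532 on the plus strand for Tmem176a, each from 250 bases before to 50 bases after the start. Capitals mark the core of a PU.1 site, GAGGAA or its reverse complement TTCCTC. PU.1 is a transcription factor of the myeloid lineage.
Tmem176b: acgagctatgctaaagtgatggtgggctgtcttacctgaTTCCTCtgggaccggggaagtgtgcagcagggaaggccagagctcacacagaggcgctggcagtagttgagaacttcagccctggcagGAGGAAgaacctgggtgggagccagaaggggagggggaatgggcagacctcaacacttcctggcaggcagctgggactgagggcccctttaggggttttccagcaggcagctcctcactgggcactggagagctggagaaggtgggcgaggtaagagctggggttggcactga
Tmem176a: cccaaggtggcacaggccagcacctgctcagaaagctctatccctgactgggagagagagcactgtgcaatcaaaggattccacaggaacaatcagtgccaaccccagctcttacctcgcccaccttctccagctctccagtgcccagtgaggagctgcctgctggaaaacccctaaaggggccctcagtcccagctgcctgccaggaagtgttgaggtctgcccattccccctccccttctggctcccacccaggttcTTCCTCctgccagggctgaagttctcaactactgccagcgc
Between these 2 starts lie 108 bases, and 208 bases of each window are the same DNA read from opposite strands. The windows available here from RefSeq were 5, 3 for Tmem176b and 2 for Tmem176a, with 108 to 667 bases between opposing starts. On either strand the PU.1 core was found 2 times in the printed Tmem176b window and 1 time in the printed Tmem176a window, and the match of Tmem176a is the same site as one of those of Tmem176b, inside the shared DNA. The other windows of Tmem176b held 0. That of Tmem176a held 2, the same sites as the 2 of the printed Tmem176b window, so the matches in all windows are 2 sites. Of 32851 mouse promoter windows of 300 bases, 28.3% hold the core. None of the 5 windows held TTGCNNAA (a C/EBP palindrome, in 10.8% of windows), CACGTG (the E-box bound by TFEB, in 7.15%) or TATAAA (the TATA box, in 13.6%), each searched on both strands. These matches describe letters and not binding. In RefSeq the span of Tmem176b also covers that of Tmem176a on the opposite strand. Transcription from the 3 Tmem176b starts above runs away from Tmem176a, so that span reaches past them. The windows and motif counts may therefore not hold every start of Tmem176b. Where in each gene its probe set lies is not given in the sources used here, so whether a probe set also reads transcripts of the other gene was not tested.

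The values are log2 expression values, on which a difference of 1 is a factor of 2. The array mTORi-HDL 1 was unlike the other 5. Across probe sets its SD was 1.69, against 2.04 to 2.09 on those, and it correlated with them at r = 0.708 to 0.741, where they correlated with each other at 0.892 to 0.912. Bright transcripts read lower on it and dim ones higher. Results are therefore given with and without it. Macrophage markers were measured at mean log2 levels of 6.77 to 8.70 in mTORi-HDL samples and 6.78 to 7.54 in untreated samples over 18 genes. T cell markers were present in the same samples, at 6.65 to 8.24 in mTORi-HDL samples and 9.03 to 9.40 in untreated samples over 16 genes.

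Tmem176b was higher on each of the mTORi-HDL arrays than on any untreated array. Its log2 level was 7.21, 8.35 and 7.64 on mTORi-HDL arrays 1, 2 and 3, against 5.38, 5.69 and 5.53 on untreated arrays 1, 2 and 3. The groups did not overlap, and the untreated arrays lay within 0.31 of each other while the mTORi-HDL arrays spread over 1.14. The mean was 7.74 ± 0.58 in mTORi-HDL samples and 5.53 ± 0.16 in untreated samples (SD, n = 3 each). This is a log2 difference of 2.20 ± 0.35 (SE) or 4.60-fold. Each SE given here is limma's, in which a gene's own variance is drawn toward that of all genes. Without mTORi-HDL 1 the difference was 2.46 ± 0.28 (SE), or 5.51-fold. In bulk samples such as these, more cells that express a gene and more RNA of it per cell cannot be told apart.

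The groups overlapped for Tmem176a on the values as deposited. Its log2 level was 5.79, 6.49 and 8.66 on mTORi-HDL arrays 1, 2 and 3, against 5.87, 5.28 and 5.60 on untreated arrays 1, 2 and 3. The level on mTORi-HDL 3 was far above all others, that on mTORi-HDL 2 was above each untreated array, and that on mTORi-HDL 1 lay below untreated 1. The mean was 6.98 ± 1.49 in mTORi-HDL samples and 5.58 ± 0.29 in untreated samples (SD, n = 3 each). The log2 difference was 1.40 ± 0.69 (limma's SE, smaller than these SDs alone give) or 2.64-fold. This difference rested largely on mTORi-HDL 3: it was 0.56 without that array and 1.99 ± 0.59 (SE) without mTORi-HDL 1. The groups did not overlap without mTORi-HDL 1, with a distance of 0.63 between the lowest mTORi-HDL and the highest untreated array, nor without untreated 1 (0.19), after quantile normalization (0.49) or after cyclic loess (0.63).

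**Figure D1:**
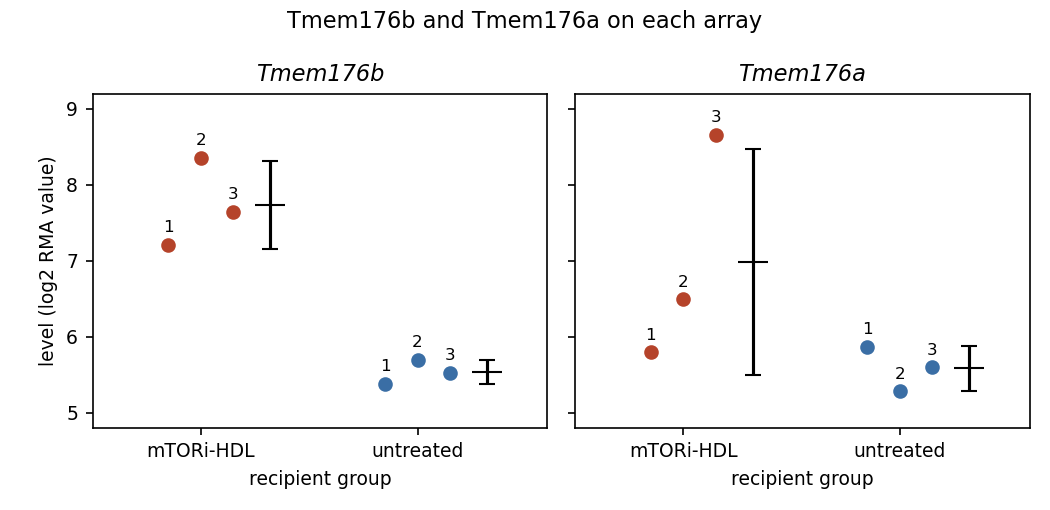
Log2 level (RMA value, vertical axis) of Tmem176b (left) and Tmem176a (right) on each array, with mTORi-HDL samples in red and untreated samples in blue and the replicate number above each point; the bars are the mean and SD of 3 arrays. Tmem176b lay at 7.21 to 8.35 in mTORi-HDL and 5.38 to 5.69 in untreated samples, while Tmem176a overlapped between the groups and was highest, at 8.66, on mTORi-HDL 3.

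The order of the arrays differed between the genes. Tmem176b was highest on mTORi-HDL 2, at 2.82 above its untreated mean, where Tmem176a lay 0.91 above its own. Tmem176a was highest on mTORi-HDL 3, at 3.07 above its untreated mean, where Tmem176b lay 2.11 above. On mTORi-HDL 1 they lay 1.68 (Tmem176b) and 0.21 (Tmem176a) above. Across the 6 arrays the 2 genes correlated at r = 0.60, and after each group's mean was taken off at r = 0.04. Against Tmem176b, Tmem176a ranked 1470 of the other 22179 genes by r over all 6 arrays.

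Levels on mTORi-HDL 1 were also set against its compressed scale. A straight line through all genes of that array on their untreated means had a slope of 0.58 and gave 5.10 for a gene with the untreated mean of Tmem176b. The measured level, 7.21, was 2.12 above this line, a larger distance upward than for 98.1% of genes on the array. The level of Tmem176a on that array, 5.79, was 0.67 above its line (81.3% of genes lay lower). On mTORi-HDL 2 and 3 Tmem176b was 2.86 and 2.15 above the lines, higher than 99.9% and 99.5% of genes, and Tmem176a was 0.95 and 3.11 above them, higher than 95.8% and 99.9%.

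Set beside all 22180 named genes, Tmem176b had rank 17 and Tmem176a rank 114 by upward difference. The median difference of all genes was 0.08, most genes lay between -1.06 (percentile 5) and 0.68 (percentile 95), and 32 genes were higher by at least 2 on the log2 scale. Of these 32 genes, 16 had an SD over 1 among the mTORi-HDL samples and 11 overlapped between the groups. Without mTORi-HDL 1 Tmem176b had rank 29 and Tmem176a rank 76. Groups did not overlap, with mTORi-HDL higher, for 5.37% of all genes with every array and for 9.75% without mTORi-HDL 1. That held for 1 of the 2 genes (Tmem176b) and for both, and since the genes were chosen from this contrast nothing is read from it. The distance of 1.52 between the lowest mTORi-HDL and the highest untreated array of Tmem176b was the widest upward distance of any gene on the values as deposited. Counting Tmem176b, 2 genes had as wide a distance after quantile normalization or cyclic loess, 3 after median centring and 3 to 10 when 1 array was left out, and downward distances were at least as wide for 12 genes. In limma's fit over all genes 0% passed an adjusted p of 0.05, with every array and without mTORi-HDL 1. With every array 1029 genes (4.64%) had an unadjusted p under 0.05 and 58.2% of genes a difference above 0. Without mTORi-HDL 1 these were 1547 genes (6.97%) and 46.6%.

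**Figure D2:**
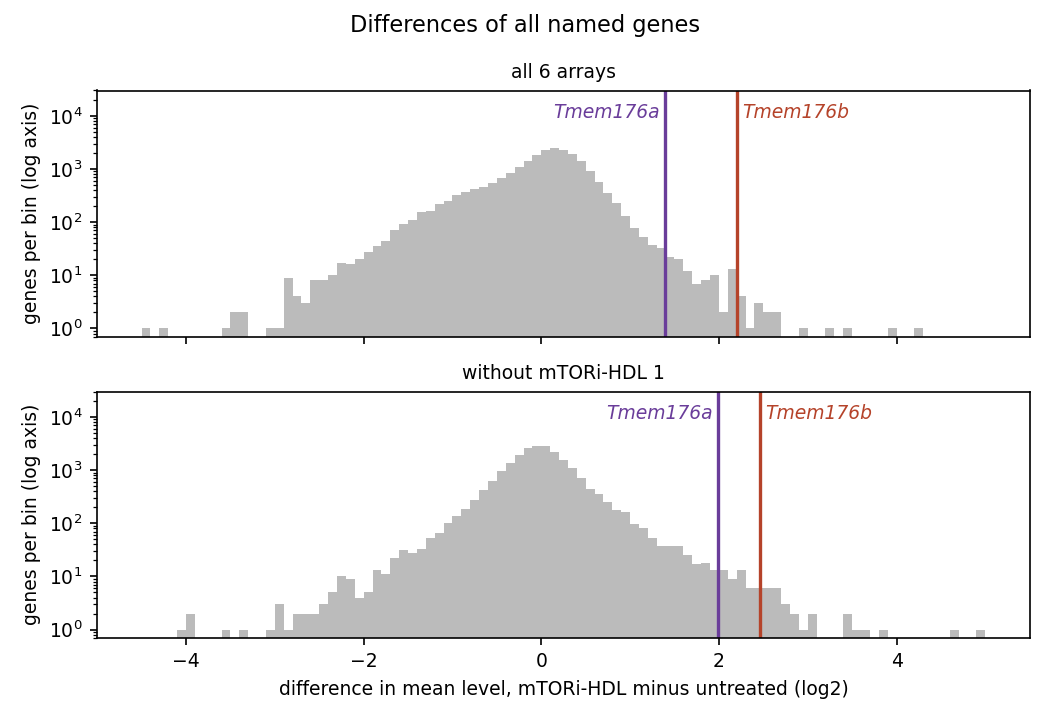
Number of named genes (vertical axis, log scale) by difference in mean log2 level, mTORi-HDL minus untreated (horizontal axis, in narrow bins), over all 6 arrays (top) and without mTORi-HDL 1 (bottom); lines mark Tmem176b and Tmem176a. Tmem176b stood at 2.20 and 2.46 and Tmem176a at 1.40 and 1.99, in the right tail of both.

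Genes beside the pair on chromosome 6 had differences below those of both members. On one side lie the 8 Gimap genes, GTPases of the immunity-associated family known from lymphocytes, and all 8 were lower in mTORi-HDL samples, by a median of -1.12 over all arrays and -0.51 without mTORi-HDL 1. Gimap3, next to Tmem176b, was at 7.49 ± 0.88 in mTORi-HDL and 8.38 ± 0.54 in untreated samples (SD, n = 3 each). Gimap7 had the most negative difference, with 6.37 ± 0.64 against 8.74 ± 0.86, and did not pass over all genes (limma, adjusted p = 0.696). On the other side Aoc1, which encodes diamine oxidase, was at 2.96 ± 0.55 against 2.91 ± 0.12. Of 19 measured protein-coding neighbours, 10 on each side less 1 not analysed here, 8 were higher and 11 lower, with differences of -2.37 to 0.57. At an unadjusted p under 0.05, 0 were higher and 2 lower (Gimap7 and Gimap8), where 1.57% and 3.07% of all genes were. In the same samples all 16 measured T cell markers were lower too, by a median of -1.51 over all arrays and -0.97 without mTORi-HDL 1, and their part in the Gimap levels was not tested.

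**Figure D3:**
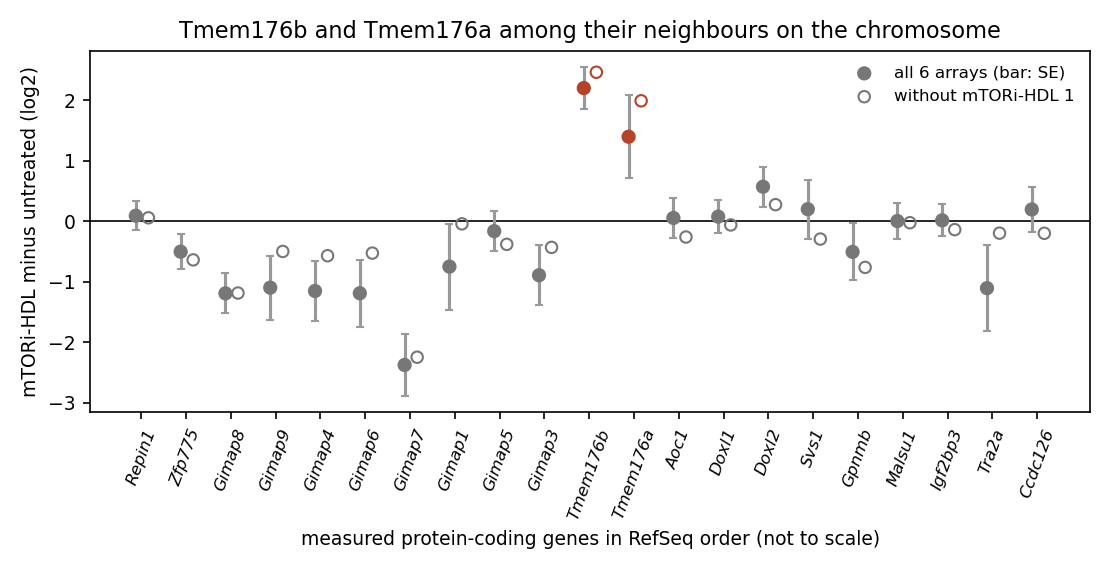
Difference in mean log2 level, mTORi-HDL minus untreated (vertical axis), of Tmem176b and Tmem176a (red) and of the measured protein-coding genes on either side (grey) in RefSeq order. Filled points with bars of limma's SE are over all 6 arrays and open points without mTORi-HDL 1. The pair stood at 2.20 and 1.40, while the 8 Gimap genes lay between -2.37 and -0.16 and the genes beyond Tmem176a between -1.10 and 0.57.

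The related MS4A family had differences in both directions. Its 18 genes were all measured, with 12 higher and 6 lower, a median difference of 0.10 beside 0.08 over all genes, and 0 past an adjusted p of 0.05. Without mTORi-HDL 1, 6 were higher and 12 lower, with a median of -0.05 beside -0.03. Ms4a1, which encodes CD20, was at 6.49 ± 0.37 in mTORi-HDL and 7.31 ± 0.47 in untreated samples (SD, n = 3 each). It was the 1 family member at an unadjusted p under 0.05, near the 4.64% of all genes, and without mTORi-HDL 1 it was not, while Ms4a7 was (6.97% of all genes). Ms4a7, known from macrophages, was at 5.05 on mTORi-HDL 1 and at 8.74 and 8.17 on mTORi-HDL 2 and 3, against 6.71 to 7.52 in untreated samples. Ms4a8a had the largest upward difference of the family, at 6.54 ± 1.27 against 4.92 ± 1.71, with overlapping groups, and Ms4a4b was at 5.46 ± 1.33 against 6.52 ± 0.19. The differences of the family ran from -1.12 to 1.63, with Tmem176b (2.20) above that range and Tmem176a (1.40) within it. Without mTORi-HDL 1 they ran from -0.71 to 1.83, and Tmem176b (2.46) and Tmem176a (1.99) were both above.

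The inflammasome, which activates caspase-1 and releases interleukin-1, was the process that TMEM176B has been described to restrain. Of its 18 genes 8 were higher and 10 lower, with a median of -0.04, and none was at an unadjusted p under 0.05 in limma's test, nor past an adjusted p of 0.05. Nlrp3, the sensor, was at 5.86 ± 0.54 in mTORi-HDL and 5.73 ± 0.87 in untreated samples, and Casp1, the protease, at 8.69 ± 0.17 against 8.30 ± 0.08 (SD, n = 3 each). Casp1 was the 1 gene of the 18 that was higher on each mTORi-HDL array than on any untreated one, near the 5.37% of all genes. Il1b, the cytokine precursor, depended on mTORi-HDL 1: it read 7.54 there and 10.51 and 10.94 on mTORi-HDL 2 and 3, against 9.34 to 10.33 in untreated samples. Il18, a second substrate, was at 4.93 ± 0.22 against 4.71 ± 0.12, and Il1rn, the receptor antagonist, at 7.63 ± 0.29 against 6.86 ± 0.75. P2rx7, the ATP-gated channel upstream of NLRP3, was at 5.41 ± 0.58 against 6.25 ± 0.72, and Panx1, a pannexin channel, at 6.53 ± 0.27 against 7.21 ± 0.50. Without mTORi-HDL 1 the median was 0.22, with 11 genes higher and 7 lower, 2 of them higher and 1 lower at an unadjusted p under 0.05 (3.47% and 3.51% of all genes).

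Other ion channels and transporters of endosomes and lysosomes were divided as well. Of 20 genes 10 were higher and 10 lower, with a median of 0.01 over all arrays and -0.06 without mTORi-HDL 1, and 0 passed an adjusted p of 0.05. Tmem175, a lysosomal potassium and proton channel, was at 4.69 ± 0.09 in mTORi-HDL and 5.70 ± 0.74 in untreated samples (SD, n = 3 each). It was the 1 gene of the list at an unadjusted p under 0.05, near the 4.64% of all genes. Without mTORi-HDL 1 it was not, while Tpcn1 and P2rx4 were, both higher (3.47% of all genes were so and higher). Tpcn1, a channel of endosomes, was at 5.03 ± 0.58 against 4.46 ± 0.33, and Clcn6, a chloride and proton exchanger of late endosomes, at 4.81 ± 0.61 against 4.28 ± 0.18. Clcn6 followed Tmem176a across the arrays, with its highest level, 5.52, on mTORi-HDL 3 as well.

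Genes of MHC class II presentation, to which both proteins have been linked, had a higher mean level on mTORi-HDL 2 and 3 and a lower one on mTORi-HDL 1. The 13 measured genes had mean log2 levels of 7.56, 9.03 and 8.90 on mTORi-HDL arrays 1, 2 and 3, against 8.09 to 8.34 in untreated samples. Without mTORi-HDL 1 all 13 were higher, with a median of 0.62 beside -0.03 over all genes. Of these, 9 did not overlap between the groups (9.75% of all genes) and 8 were at an unadjusted p under 0.05 (3.47% of all genes), while 0 passed an adjusted p of 0.05. Over all arrays 10 were higher and 3 lower, with a median of 0.34 and none at an unadjusted p under 0.05 in limma's test. H2-Aa, the alpha chain of I-A, read 10.50 on mTORi-HDL 1 and 11.44 and 11.58 on mTORi-HDL 2 and 3, against 10.51 to 10.59 in untreated samples. Ifi30, a lysosomal thiol reductase, read 9.31, and 11.37 and 10.99, against 9.60 to 10.07. Single genes departed from the mean. Marchf1, a ubiquitin ligase of MHC class II, was higher on each mTORi-HDL array (5.06 to 5.37) than on any untreated one (4.67 to 5.05). It was the 1 gene of the list for which this held, where 5.37% of all genes were so. H2-DMb2, a peptide-loading chain, read 9.81 on mTORi-HDL 3, against 9.97 to 10.17 in untreated samples.

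Cross-presentation genes were mostly lower over all arrays and divided without mTORi-HDL 1. Of 20 measured genes 6 were higher and 14 lower over all arrays (median -0.42), and 11 were higher and 9 lower without mTORi-HDL 1 (median 0.02). Rab27a, a GTPase that brings the NADPH oxidase to phagosomes, was at 5.29 ± 0.49 in mTORi-HDL and 7.20 ± 0.22 in untreated samples, without overlap (SD, n = 3 each). It was the 1 gene of the list at an unadjusted p under 0.05, near the 4.64% of all genes, and did not pass over all genes (limma, adjusted p = 0.468). Rac2, a GTPase subunit of that oxidase in leukocytes, was at 9.53 ± 1.30 against 10.93 ± 0.45 (SD, n = 3 each).

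Dendritic cell maturation genes, which in dendritic cells have been described to change opposite to both genes, were also higher on mTORi-HDL 2 and 3 on average. The 14 measured genes had mean log2 levels of 5.71, 6.95 and 6.72 on mTORi-HDL arrays 1, 2 and 3, against 5.92 to 6.11 in untreated samples. Cd40, a receptor for T cell help, was at 7.89 ± 0.27 in mTORi-HDL and 6.49 ± 0.43 in untreated samples, without overlap, and Cd86, a costimulatory ligand, at 9.25 ± 0.70 against 7.56 ± 0.92 (SD, n = 3 each). Both, 2 of 14 genes, were at an unadjusted p under 0.05 (1.57% of all genes were so and higher), and 0 genes of the list passed an adjusted p of 0.05. Ccl17, a chemokine of mature dendritic cells, was at 6.27 ± 1.06 against 4.79 ± 1.58. Over all arrays 9 were higher and 5 lower (median 0.17), and without mTORi-HDL 1, 13 were higher and 1 lower (median 0.78), 5 of the higher ones at an unadjusted p under 0.05 (3.47% of all genes).

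Other genes associated with tolerance were mostly lower. Of 21 genes 6 were higher and 15 lower (median -0.57), and 8 higher and 13 lower without mTORi-HDL 1 (median -0.30), with 0 past an adjusted p of 0.05. Socs3, a feedback inhibitor of cytokine signalling, was at 9.82 ± 0.29 in mTORi-HDL and 8.49 ± 0.48 in untreated samples, without overlap (SD, n = 3 each). Lgals1, galectin-1, was at 9.43 ± 1.89 against 11.41 ± 0.27, without overlap, and Nt5e, the ectonucleotidase CD73, averaged 5.58 against 6.77, with overlap. Hmox1, heme oxygenase 1, was at 8.80 ± 0.87 against 9.08 ± 0.39. Socs3 was the 1 gene higher and Lgals1 the 1 gene lower at an unadjusted p under 0.05, of 21 genes, where 1.57% and 3.07% of all genes were.

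Markers of the sorted cells and of other cells of the graft also differed between the groups. The 18 macrophage markers, of which 14 were higher over all arrays and 17 without mTORi-HDL 1, had medians of 0.73 and 1.11. Their mean log2 level was 6.77, 8.05 and 8.70 on mTORi-HDL arrays 1, 2 and 3, so on mTORi-HDL 1 it lay just below the untreated range of 6.78 to 7.54. On that array Tmem176b was 1.68 above its untreated mean, but only the pair was set against the compressed scale of that array. Fcgr1, the high-affinity Fc receptor, was at 8.43 ± 0.61 in mTORi-HDL and 6.58 ± 0.61 in untreated samples, and Csf1r, the receptor of a macrophage growth factor, read 5.00, and 8.75 and 9.08, against 7.54 to 8.19. Monocyte markers read 5.95, 6.31 and 7.55 against 6.00 to 6.58 over 12 genes. Like Tmem176a they were highest on mTORi-HDL 3, as were macrophage markers and fibroblast and mural cell markers. Dendritic cell markers read 5.54, 6.65 and 6.38 against 5.78 to 6.04 over 15 genes. Like Tmem176b they were highest on mTORi-HDL 2. Among the mTORi-HDL arrays, T cell, cytotoxic lymphocyte and B cell markers were also highest on mTORi-HDL 2, so these orders are not particular to 1 cell type. Of the dendritic cell markers Batf3, needed for cross-presenting dendritic cells, was at 7.50 ± 0.37 against 5.85 ± 0.49 in untreated samples. Flt3, a growth factor receptor, was at 5.94 ± 0.90 against 4.94 ± 0.21, and Itgae, an integrin, at 3.91 ± 0.69 against 5.02 ± 0.53 (SD, n = 3 each).

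On the values as deposited, fibroblast and mural cell markers were the 1 cell type list whose mean, like Tmem176b, lay higher on every mTORi-HDL array. They read 5.23, 5.62 and 5.72 against 4.74 to 4.93 over 12 genes. Of these 9 were higher and 3 lower (median 0.50), 4 of them higher at an unadjusted p under 0.05 (1.57% of all genes). Macrophage markers (8.05 and 8.70) and dendritic cell markers (6.65 and 6.38) also lay above every untreated array on mTORi-HDL 2 and 3. Of the 18 single macrophage markers, 6 likewise passed that unadjusted limit as higher and 0 as lower. Groups did not overlap, with mTORi-HDL higher, for 6 macrophage markers and for 4 of the 12 fibroblast and mural cell markers. Without mTORi-HDL 1 these were 12 and 5, while 0 and 1 lay apart as lower. Single genes therefore do not set the fibroblast and mural cell list apart from the macrophage list. Bright transcripts read lower on mTORi-HDL 1, and the lists were not set against its compressed scale. Dcn, decorin of the extracellular matrix, read 6.67, 8.22 and 7.14 against 5.29, 5.38 and 4.70. The order of mTORi-HDL arrays in Dcn was that of Tmem176b. This order did not hold for the mean of the fibroblast and mural cell list. Nor did it hold for Rgs5, Col1a2 or Lum, the other genes of that list at an unadjusted p under 0.05. T cell markers were lower on every mTORi-HDL array, at 6.65, 8.24 and 8.13 against 9.03 to 9.40. Cd3e, part of CD3 on T cells, was at 8.58 ± 1.84 against 10.58 ± 0.25 (SD, n = 3 each). Cytotoxic lymphocyte markers had a median difference of -0.62 over 10 genes (-0.26 without mTORi-HDL 1) and B cell markers of -0.54 over 8 (-0.42 without). Neutrophil markers had a median of 0.15 over 10 genes (-0.18 without mTORi-HDL 1), endothelial markers of 0.15 over 9 (-0.0083 without) and cardiomyocyte markers of 0.34 over 10 (0.11 without). No list had a marker at 0 on every array, and no marker passed an adjusted p of 0.05. The part of these cell types in the levels of the pair and of the other gene lists above was not tested.

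**Figure D4:**
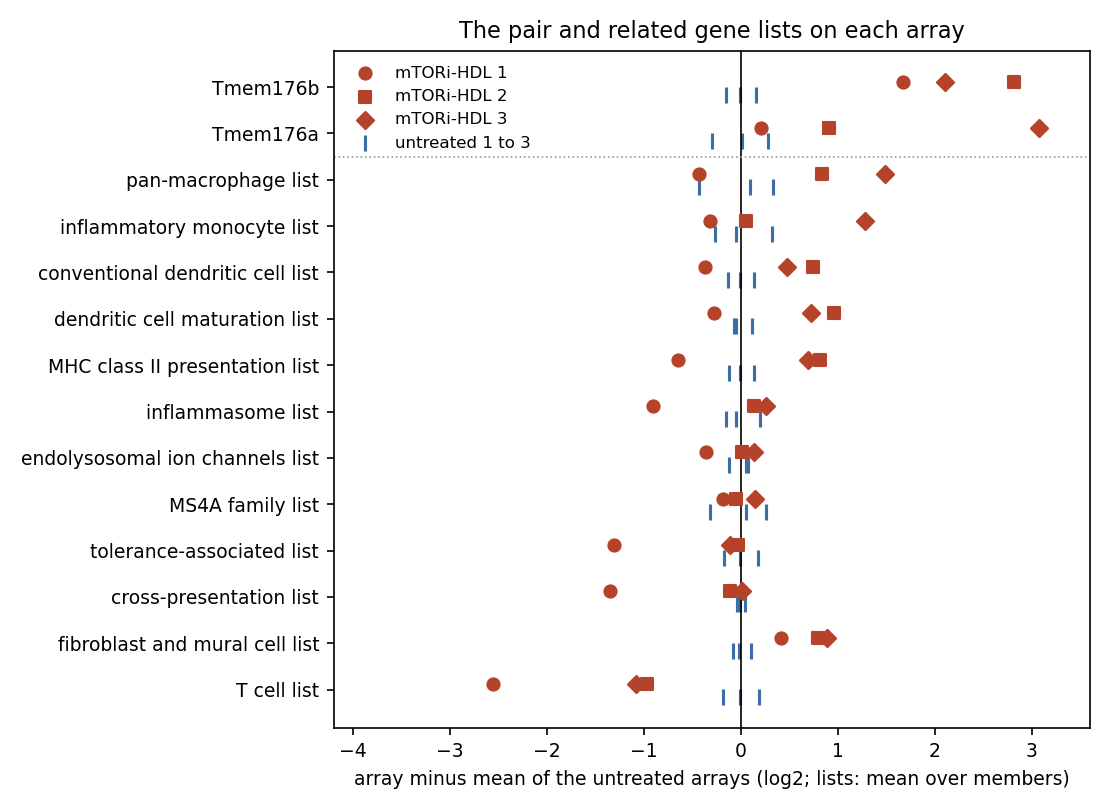
Array minus mean of the untreated arrays (log2, horizontal axis) for Tmem176b, Tmem176a and the mean over members of 12 gene lists; red symbols are the 3 mTORi-HDL arrays and blue ticks the 3 untreated arrays. Tmem176b was above all untreated arrays on each mTORi-HDL array (1.68, 2.82 and 2.11), which among the lists held for fibroblast and mural cell markers. On mTORi-HDL 1 the macrophage, dendritic cell and MHC class II lists lay below 0. The values are not adjusted for the compressed scale of mTORi-HDL 1, on which bright transcripts read lower.

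The gene whose pattern over the 6 arrays was most like that of Tmem176b was Inpp5j, a phosphoinositide phosphatase (r = 0.983). Its difference of 0.38 was far smaller. Dcn (r = 0.978) was at place 5 and Rgs5, a pericyte gene (r = 0.974), at place 8. In the marker list that holds Dcn and Rgs5, 9 genes were higher and 3 lower (Pdgfrb, Tagln and Thy1). The others of the 10 highest were C1ql1, Gpr33, Ormdl3, Tmem219, Trim36, Wbscr25 and Tet1, with r of 0.972 to 0.983 and differences of 0.31 to 1.81. Gpr33, an orphan receptor of the chemoattractant family, was at 5.93 ± 0.70 in mTORi-HDL and 4.12 ± 0.25 in untreated samples, without overlap (SD, n = 3 each). All 10 were higher on each mTORi-HDL array than on any untreated array, where 5.37% of all genes were. They were picked for their likeness to Tmem176b, so nothing is read from this count. Their r stayed at 0.971 to 0.995 without mTORi-HDL 1, but 175 genes then had r above 0.95 and 1 of the 10 was among the 10 most alike. After each group's mean was taken off, their r was 0.64 (Wbscr25) to 0.97 (Trim36), and 0 of the 10 were among the 10 most alike.

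Among the 10 genes most like Tmem176a, Dpy19l4 had the highest r, 0.997, with a difference of 0.25, followed by Dhrs9, a retinol dehydrogenase (r = 0.987). Fn1, fibronectin, made by monocytes among other cells, was at place 3 (r = 0.984). It read 4.53, 6.30 and 9.54 on mTORi-HDL arrays 1, 2 and 3, against 4.10 to 4.51 in untreated samples. Of the 12 monocyte markers, among them Fn1, 7 were higher and 5 lower. Tnnc1, cardiac troponin C, had r = 0.983 and read 5.76, 6.31 and 7.71 against 4.99 to 5.80. The others were Spint1, Chmp4c, Amy2b, Clcn6, Zfp93 and Gab1, with r of 0.977 to 0.983. Amy2b, Dhrs9 and Zfp93 were dim, at means of 1.41, 2.95 and 2.86 in untreated samples. Without mTORi-HDL 1 their r was 0.977 to 0.997, and 1 of the 10 was among the 10 most alike. With 6 arrays from 2 groups such values of r describe shared shape on these arrays: 24 genes had r above 0.95 with Tmem176b and 35 with Tmem176a.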

How the data were processed

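Expression was measured in 3 mTORi-HDL and 3 untreated samples with 1 array each, from 15 ng of RNA per the labels' protocols. The deposited values are log2 expression values for 41345 probe sets. The submitters' processing notes name RMA and Affymetrix Expression Console as what the authors used. RMA in general includes background correction, quantile normalization and summary over probes. Their versions, a genome build and the markers of the sort are not given in the sources used here. Arrays have no read depth, and their number limits the precision. There were 0 missing values and 0 identical arrays.

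Gene symbols came from the annotation of the platform (23521 with 1 symbol, 1814 with several, 16010 with none). The brightest with 1 symbol stood for each of 22180 genes, with no filter on dim genes. The comparison used limma 3.58.1 under R 4.3.3 (a term for group alone, 4 residual degrees of freedom, two-sided, Benjamini-Hochberg adjustment over all genes), after a test on simulated arrays. Differences are mTORi-HDL minus untreated. Descriptions used Python 3.11.15 and pandas 2.3.3.

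The 2 genes, 7 pathway lists and 11 cell type lists were chosen with earlier results of these data known. One cell type list and 1 motif are not reported here. Of 267 list entries 255 were measured on probe sets with 1 symbol. Named genes were the pair, a panel of 12 genes, from each list the 4 genes of smallest p (for the MS4A family 3), neighbours in RefSeq order (GRCm38.p6) and the 10 genes with the highest r to each member (uninformative symbols left out). Ms4a7, P2rx4, H2-DMb2, H2-Ea and H2bc12 were named after their values were seen. Alternatives were other normalizations, filters, moderation, array weights, a replicate block, other ways of joining probe sets, and each array left out in turn.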

Additional observations from a re-analysis of the deposited data

How the results depend on the processing

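The difference of Tmem176b was between 1.89 and 2.46 when 1 array was left out, 2.66 after cyclic loess and 2.43 after quantile normalization. That of Tmem176a was 0.56 to 1.99 with 1 array left out, lowest without mTORi-HDL 3, 1.58 after quantile normalization and 1.80 after cyclic loess. Both genes were higher in mTORi-HDL samples under every setting run. The count past an adjusted p of 0.05 was 0 throughout, apart from 1 gene (H2bc12, lower) with array weights, and it was 0 to 0 with 1 array left out. At an unadjusted p under 0.05 the count was 1029, and it was 1768 with array weights, 635 among genes above the median level, 615 to 1547 with 1 array left out (1547 without mTORi-HDL 1, 655 without untreated 2, 615 without untreated 3) and 1561 with the other 5 arrays quantile-normalized without mTORi-HDL 1. The causes were not tested. The replicate block gave 0 genes past an adjusted p of 0.05 and 1183 at an unadjusted p under 0.05. Residuals of equally numbered arrays correlated at 0.136, 0.135 and -0.024. Those of mTORi-HDL 2 and 3 correlated nearly alike with untreated 2 (0.135 and 0.126) and with untreated 3 (-0.034 and -0.024). These values therefore cannot decide whether the samples are paired, and the numbers were not taken to pair them. Without mTORi-HDL 1 the direction turned for 12 of the 112 other genes named by the rule, and for H2-DMb2 (0.016) outside it, none past an adjusted p of 0.05: Il1b (0.93), Csf1r (1.03), Hmox1 (0.17), Nlrp3 (-0.094), Camp (-0.073), Egfl7 (-0.042), Aoc1 (-0.26), Doxl1 (-0.059), Svs1 (-0.29), Malsu1 (-0.022), Igf2bp3 (-0.14) and Ccdc126 (-0.20). The median over all genes was 0.08, and -0.03 after median centring, where Tmem176b was at 2.10 and Tmem176a at 1.29. List medians kept their sign for 12 of 18 lists without mTORi-HDL 1 (not for the MS4A, inflammasome, endolysosomal channel, cross-presentation, neutrophil and endothelial lists) and for 17 of 18 after quantile normalization.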
